A study of Mus musculus with 8 samples.

Results

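The genes described here are the 9 kidney genes for water channels, urea transporters and vasopressin receptors: Aqp1, Aqp2, Aqp3, Aqp4, Aqp6, Slc14a1, Slc14a2, Avpr2 and Avpr1a. They were chosen by gene symbol from the 32285 features counted in the single-nucleus libraries, 21286 of which were protein coding, and each was found once. Water leaves the tubular fluid through aquaporins, and urea crosses membranes through facilitated transporters, which together let the kidney concentrate urine along a gradient that rises from the cortex to the inner medulla. Vasopressin binds the V2 receptor (Avpr2) on principal cells of the connecting tubule and collecting duct, where cyclic AMP brings Aqp2 to the apical membrane and acts on the urea transporter of the inner medulla, while the V1a receptor (Avpr1a) signals through calcium. Urine flow and its concentration are known to differ between the rest and the active phase of the day, and the comparisons asked whether these genes differ between time points and after loss of the tubular clock.

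Nuclei were isolated from frozen kidney of 8 male C57BL/6J mice, 1 mouse per library and 2 mice in each of 4 groups. Control mice (Ctrl) were Bmal1 lox/lox, while their cKOt littermates also had Pax8-rtTA and LC-1, a pair of transgenes that switch on Cre recombinase when doxycycline is given. Mice of both genotypes received 2 mg/ml doxycycline in drinking water for 2 weeks from 8 weeks of age, and were sacrificed at 14 weeks of age, so the controls had the drug and the lox alleles too. ZT4 lies in the light phase and ZT16 in the dark phase of the light and dark schedule. Pax8-rtTA acts in renal tubules, so endothelial, stromal and immune nuclei of cKOt mice should have kept an intact gene, which was not tested.

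The libraries held between 8758 and 10975 nuclei and between 36548873 and 54500820 UMIs (unique molecular identifiers, 1 for each captured transcript) after filtering. Of the barcodes, 823 occurred in 2 or more libraries. Counts of Arntl (Bmal1), the targeted gene, are made over the whole gene and so could not test the deletion. In tubular nuclei its level was higher in cKOt, at 324 and 230 CPM against 27.6 and 20.0 CPM in Ctrl at ZT4, and 335 and 295 CPM against 180 and 173 CPM at ZT16. At ZT4 the level of Nr1d1, a direct target of BMAL1, in tubular nuclei was 23.6 and 24.6 CPM for Ctrl but 2.27 and 3.92 CPM for cKOt, which matched the labels. CPM here means UMIs per 1000000 protein-coding UMIs of the same nuclei.

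Nuclei were clustered on protein-coding genes from which the 9 genes and a list of 44 related genes had been removed, so the levels across classes were not used to make the classes. The 78 clusters were named by marker genes, which gave 24 classes, and 22 of these held at least 10 nuclei in every library and were compared. The classes were proximal convoluted and straight tubule (PCT, PST, and PCT/PST with markers of both), thin descending and ascending limb (thinDL, thinAL), thick ascending limb (TAL), macula densa (MD), distal convoluted tubule (DCT1, DCT2), connecting tubule (CNT), cortical and medullary collecting duct (CCD, MCD), type A and type B intercalated cells (aIC, bIC), urothelium (UT), podocytes (Podo), arterial and descending vasa recta endothelium (aEC), capillary endothelium (capEC), mesangial cells and pericytes (Mes/Per), smooth muscle and juxtaglomerular cells (SMC/JGC), myeloid cells (Myel), and T and natural killer cells (TC/NK). Each name stands for nuclei that resemble the cell type by these markers.

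The promoters of 5 of the genes are shown, those of Aqp2 and Aqp3, which had calls within classes, and those of Aqp6, Avpr1a and Avpr2, whose levels over all nuclei did not overlap between genotypes at either time point. With 2 libraries a group, levels often separate without a true difference, and the share of all genes that did so was not computed. The promoters are RefSeq sequences of GRCm38.p6, 250 bases before to 50 after the transcript start in that table. Windows of 6 of the 9 genes were searched. Those of Aqp4, Slc14a1 and Slc14a2 were not examined, although Aqp4 and Slc14a2 also had calls within classes. Capitals mark CACGTG, the E-box to which CLOCK and BMAL1 can bind, and TGACG or CGTCA, the core of the cyclic AMP response element, each searched on both strands. The Aqp2 promoter lies at chr15:99578806-99579105 (plus strand), Aqp6 at chr15:99600950-99601249 (plus strand), Aqp3 at chr4:41098134-41098433 (minus strand), Avpr1a at chr10:122448249-122448548 (plus strand) and Avpr2 at chrX:73891852-73892151 (plus strand).
Aqp2: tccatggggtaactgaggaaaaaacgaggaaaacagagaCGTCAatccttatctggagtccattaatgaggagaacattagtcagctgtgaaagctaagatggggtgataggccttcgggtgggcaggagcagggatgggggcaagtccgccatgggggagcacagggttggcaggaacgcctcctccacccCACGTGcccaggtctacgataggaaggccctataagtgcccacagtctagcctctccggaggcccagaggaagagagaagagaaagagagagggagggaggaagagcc
Aqp6: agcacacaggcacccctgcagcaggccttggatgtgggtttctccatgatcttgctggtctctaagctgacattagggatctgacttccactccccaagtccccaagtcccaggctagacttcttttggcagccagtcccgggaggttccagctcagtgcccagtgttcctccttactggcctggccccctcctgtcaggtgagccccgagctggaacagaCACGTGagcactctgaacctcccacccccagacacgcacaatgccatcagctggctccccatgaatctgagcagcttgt
Aqp3: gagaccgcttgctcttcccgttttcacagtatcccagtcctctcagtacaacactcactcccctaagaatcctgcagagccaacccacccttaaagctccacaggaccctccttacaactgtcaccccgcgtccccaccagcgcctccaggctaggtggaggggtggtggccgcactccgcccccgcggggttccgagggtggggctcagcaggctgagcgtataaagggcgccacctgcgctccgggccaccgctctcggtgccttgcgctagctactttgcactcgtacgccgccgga
Avpr1a: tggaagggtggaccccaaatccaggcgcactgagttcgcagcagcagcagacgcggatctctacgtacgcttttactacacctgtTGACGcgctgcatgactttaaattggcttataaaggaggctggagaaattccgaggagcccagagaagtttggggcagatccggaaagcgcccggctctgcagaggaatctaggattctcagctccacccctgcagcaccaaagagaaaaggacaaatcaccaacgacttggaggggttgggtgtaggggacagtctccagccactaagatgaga
Avpr2: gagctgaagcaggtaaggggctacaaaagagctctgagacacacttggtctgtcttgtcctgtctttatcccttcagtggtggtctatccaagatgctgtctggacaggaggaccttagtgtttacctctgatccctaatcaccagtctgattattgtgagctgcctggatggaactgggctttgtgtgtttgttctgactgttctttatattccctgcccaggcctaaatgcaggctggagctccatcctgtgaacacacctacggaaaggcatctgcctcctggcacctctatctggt

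In the Aqp2 promoter CACGTG began at position -58 and CGTCA at position -211 from the transcript start, in the Aqp6 promoter CACGTG began at -29, and in the Avpr1a promoter TGACG began at -165. The windows of Aqp3, Aqp1 and Avpr2 held neither set of letters. Of 32851 RefSeq promoters of the same length, 7.15% held CACGTG and 20.8% held TGACG or CGTCA. These matches are descriptions of the letters and not measured binding sites. The starts of Aqp6 and Avpr2 in that table lie inside the genes (chr15:99598468-99605478 and chrX:73891765-73894428), and both windows begin after the annotated gene start, so other starts of these genes were not covered. Aqp5, which had 2 to 28 UMIs a library, lies between it and Aqp2 (chr15:99579056-99584545), and all of them are on the same strand.

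Aqp1, the constitutive water channel of the proximal tubule and descending limb, had its highest mean level in thinDL, with 1832 CPM over the 8 libraries (lowest 1073, median 1979, highest 2400). Its next classes were aEC with 638 CPM and PST with 132 CPM. thinDL nuclei were 1596 of 81391 and held 35.4% of all Aqp1 UMIs.

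Aqp2, the vasopressin-regulated channel of the apical membrane, had 2111 CPM in MCD, 1137 CPM in CCD and 253 CPM in CNT. The fourth class, Myel, had 74.6 CPM. Aqp3, a channel of the basolateral membrane of the same principal cells, had 205 CPM in CCD, 86.8 CPM in MCD and 51.5 CPM in CNT, and Aqp4, another basolateral channel, had 1057 CPM in MCD and 270 CPM in CCD. The order of CCD and MCD thus differed between Aqp3 and the other aquaporins of principal cells. Aqp6, a channel of intracellular vesicles of type A intercalated cells, had 557 CPM in aIC and 13.5 CPM in bIC, and 80.4% of its UMIs came from the 1095 aIC nuclei.

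Slc14a1, which encodes the urea transporter UT-B of descending vasa recta and urothelium, had 598 CPM in aEC, 118 CPM in UT, 112 CPM in TC/NK and 94.4 CPM in Myel. The next compared class, SMC/JGC, had 7.30 CPM. Slc14a2, which encodes the UT-A urea transporters of the inner medullary collecting duct and thin descending limb, had 8858 CPM in MCD, 647 CPM in UT and 138 CPM in Mes/Per. MCD held 69.4% of its UMIs. Cluster 34, which the markers left unnamed and whose leading genes were Corin, Htr4 and Angpt2, had 5309 CPM of Slc14a2 in its 847 nuclei.

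Avpr2, the V2 receptor, was lower in counts, with 72.0 CPM in CCD, 58.2 CPM in MCD and 45.4 CPM in CNT, then 9.84 CPM in thinAL and 7.47 CPM in TAL. Avpr1a had 69.6 CPM in bIC, 50.4 CPM in aIC and 39.0 CPM in MD, and 1.63 CPM in the next class, Mes/Per. The MD value rested on 33 UMIs in 213 nuclei. The V2 receptor was thus read in principal-cell classes and the V1a receptor in intercalated cells and MD.

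**Figure D1:**
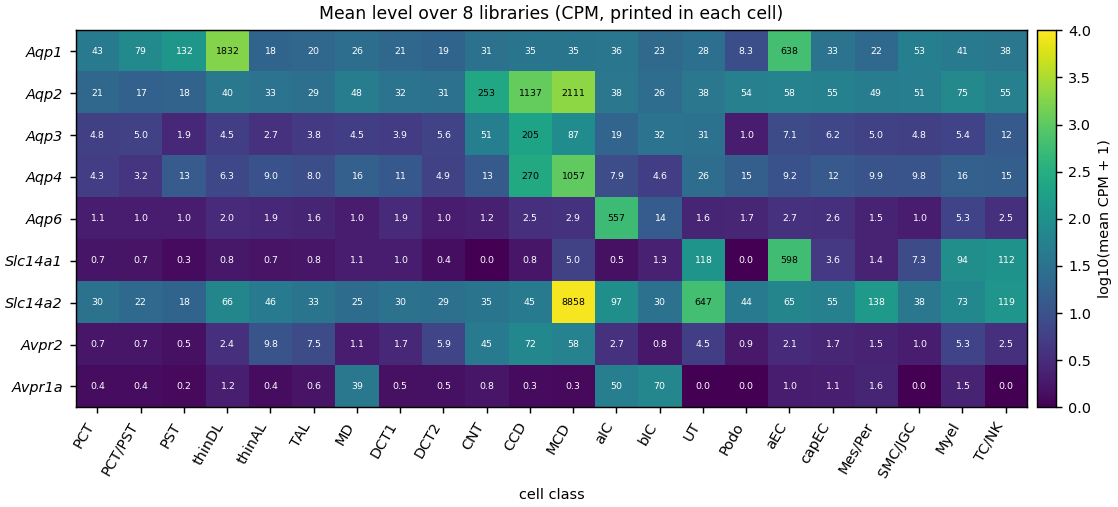
Mean level over 8 libraries of the 9 genes (vertical) in the 22 compared classes (horizontal), in CPM as printed in each cell, with the colour giving log10(mean CPM + 1). Read along a row, the highest cells include 2111 CPM of Aqp2 in MCD and 557 CPM of Aqp6 in aIC, while levels of different genes are not corrected for length and should not be set against each other.

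Classes were compared within libraries, pairing the log2(CPM + 1) of neighbouring classes in the order of a gene by an exact two-sided sign-flip permutation test. Over 189 neighbour pairs, none passed an adjusted p of 0.05, and 25 had an unadjusted p under 0.05. With 8 libraries the smallest p this test can give is 0.0078125, which 18 pairs reached, and their adjusted p was 0.0820. The order came from the same values, so the p-values do not test it and describe only how consistent a difference was across libraries. Among these 18 were thinDL over aEC for Aqp1 (1.50 on the log2 scale), MCD over CCD for Aqp2 (0.79) and for Aqp4 (2.05), and CCD over MCD for Aqp3 (1.41). So were aIC over bIC for Aqp6 (5.66), aEC over UT for Slc14a1 (2.59), MCD over UT for Slc14a2 (3.94) and bIC over aIC for Avpr1a (0.47). CCD was over MCD for Avpr2 in 7 of 8 libraries, by 0.30 (exact permutation p = 0.0156). For Slc14a1, neighbouring classes did not differ beyond their spread in UT over TC/NK, which held in 4 of 8 libraries (exact permutation p = 0.945), nor in TC/NK over Myel, which held in 5 of 8 (exact permutation p = 0.625), and UT was not tested against Myel.

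The share of nuclei with at least 1 UMI was also taken, after thinning each nucleus to 1000 UMIs. For Aqp2, Avpr2 and Avpr1a it was highest in the class with the highest level. For Slc14a1 it was highest in aEC, but UT (7.49%) lay below TC/NK (9.69%) and Myel (7.79%). Thinned, Aqp2 was found in 67.6% of MCD and 58.0% of CCD nuclei (91.4% and 88.5% unthinned), against 1.96% of PCT nuclei (8.08% unthinned), a class that should lack it. Outside CNT, CCD and MCD its thinned share reached 5.35% in aEC and 5.33% in Myel. The median depth was 3813 UMIs in MCD, 3614 in CCD and 4632.5 in PCT. Thinning left out 258 nuclei of Ctrl ZT16, 367 of Ctrl ZT4, 188 of cKOt ZT16 and 328 of cKOt ZT4. Avpr2 was found in 5.99% of thinned CCD nuclei (20.2% unthinned) and 0.0807% of PCT nuclei, and Avpr1a in 6.18% of thinned bIC nuclei (25.3% unthinned) and 0.0211% of PCT nuclei. The receptors were thus seen in a minority of the nuclei of their own classes at this depth, yet well above the share in PCT.

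Along the connecting tubule and collecting duct the genes had different profiles. The CCD class was made of clusters 25 and 27 and the MCD class of clusters 22 and 31. Leading genes were Mgat4c and Hsd11b2 in cluster 25, Btc in cluster 27, Aldh1a3 and Ros1 in cluster 22, and Adgrf1 and Nek10 in cluster 31. Aqp2 had 253 CPM in CNT and then 844, 1456, 1918 and 2803 CPM in clusters 25, 27, 22 and 31, so its mean was higher at each step. Aqp4 had 12.6 CPM in CNT, 50.8 CPM in cluster 25 and 507 CPM in cluster 27, then 1061 and 1140 CPM in clusters 22 and 31, with its widest step, as a fold, between the CCD clusters. Aqp3 was highest in the CCD clusters (206 and 204 CPM) and lower in clusters 22 and 31 (89.8 and 98.9 CPM). Avpr2 stayed between 45.4 CPM in CNT and 79.6 CPM in cluster 27. Slc14a2 had 36.3 and 56.4 CPM in the CCD clusters, 3041 CPM in cluster 22 and 14955 CPM in cluster 31, and 98.5% of the 1024 nuclei of cluster 31 held a UMI of it. These steps between clusters are given as descriptions and were not tested.

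**Figure D2:**
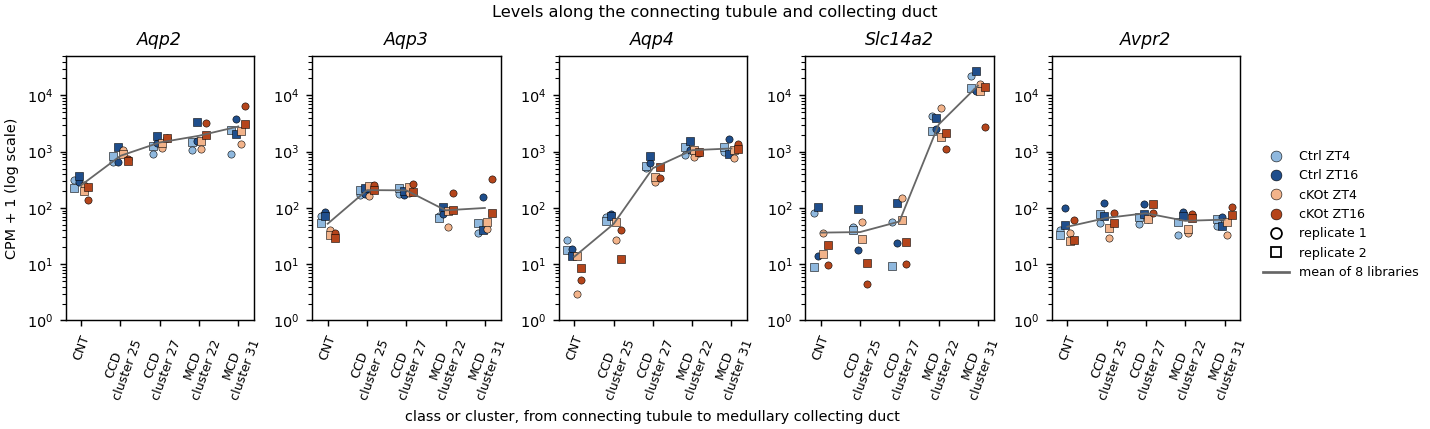
Level (CPM + 1, log scale) of Aqp2, Aqp3, Aqp4, Slc14a2 and Avpr2 in CNT and in the clusters of CCD and MCD. Each point is 1 library, coloured by group, circles and squares are replicates 1 and 2, and the line joins the means of the 8 libraries. Aqp4 steps up between clusters 25 and 27 (50.8 and 507 CPM), Slc14a2 between clusters 27 and 22 (56.4 and 3041 CPM), and Avpr2 stays between 45.4 and 79.6 CPM.

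Classes far from the collecting duct also held some UMIs of Aqp2 and Slc14a2. In PCT, Aqp2 had between 10.0 CPM (Ctrl ZT4, replicate 2) and 39.2 CPM (Ctrl ZT16, replicate 2), and in capEC between 23.5 and 97.5 CPM in the same libraries. Slc14a2 had in PCT 26.8 and 8.42 CPM in Ctrl ZT4, 10.0 and 90.8 CPM in Ctrl ZT16, 35.9 and 34.3 CPM in cKOt ZT4, and 16.5 and 21.3 CPM in cKOt ZT16. These low levels were highest in the library with the most MCD nuclei (518, Ctrl ZT16, replicate 2). In that library Slc14a2 over all nuclei had 1204 CPM, the highest of the 8.

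**Figure D3:**
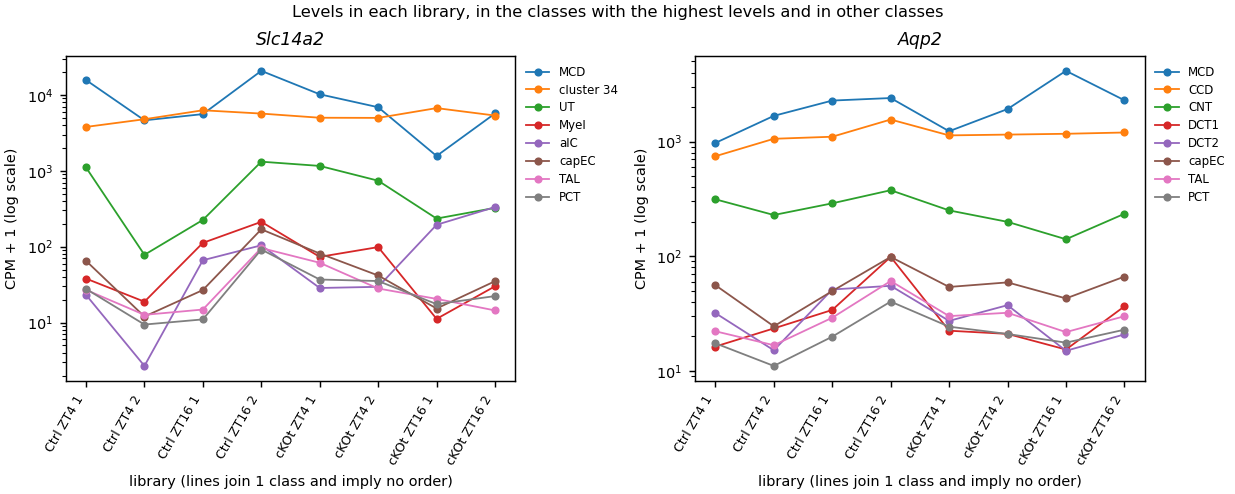
Level (CPM + 1, log scale) of Slc14a2 and Aqp2 in each of the 8 libraries, with a line per class or cluster that joins its values and implies no order. In TAL and PCT, far below the collecting duct, both genes peak in replicate 2 of Ctrl ZT16 (90.8 CPM of Slc14a2 and 39.2 CPM of Aqp2 in PCT), while cluster 34 stays between 3778 and 6689 CPM.

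The number of MCD nuclei ranged from 81 (cKOt ZT16, replicate 1) to 518, or from 0.925% to 4.82% of a library, and differed between replicates of 1 group. How much medulla each piece of kidney held and a change in cell number cannot be told apart here, nor, in sums over all nuclei, fewer nuclei of a class and less RNA per nucleus.

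For the sums over all nuclei, edgeR's quasi-likelihood test gave 5 contrasts from 1 fit to all 4 groups, with Benjamini-Hochberg adjustment over all protein-coding genes tested, and a gene with an adjusted p under 0.05 was called. None of the 9 genes was called in any of the 5. In ZT16 against ZT4 in Ctrl, 0 of 9 were called beside 0.142% of all genes, and 4 had an unadjusted p under 0.05 beside 9.96% of all genes. DESeq2 called 1 (Aqp2), beside 233 of 16159 genes. In the other contrasts the share of all genes called was 0% for ZT16 against ZT4 in cKOt, 0.446% for cKOt against Ctrl at ZT4, 0.174% for cKOt against Ctrl at ZT16 and 0.0184% for the interaction of genotype and time. The genes with an unadjusted p under 0.05 there numbered 2, 2, 4 and 1, beside 8.32%, 8.87%, 6.1% and 4.35% of all genes. DESeq2 called Aqp6 in cKOt against Ctrl at ZT4, beside 348 of 16139 genes, and none of the 9 in the others.

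The fold changes of the 9 genes had a median of 0.56 (log2) in ZT16 against ZT4 in Ctrl, where all 9 were positive, beside a median of -0.0032 over all genes. In cKOt against Ctrl at ZT16 their median was -0.47 and 8 of 9 were negative, beside 0.0031 over all genes. The medians were 0.18 in ZT16 against ZT4 in cKOt, 0.03 in cKOt against Ctrl at ZT4 and -0.29 for the interaction. The Ctrl ZT16 libraries enter both of the contrasts with the larger medians, and the collecting duct genes among the 9 share the nuclei of MCD and CCD, so the signs are not independent of each other.

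Aqp2 over all nuclei had 75.4 and 77.9 CPM in Ctrl ZT4, 108 and 225 CPM in Ctrl ZT16, 102 and 109 CPM in cKOt ZT4, and 88.6 and 124 CPM in cKOt ZT16. Both Ctrl ZT16 libraries lay above both Ctrl ZT4 libraries, with a log2 fold change of 1.13 ± 0.32 (SE, edgeR adjusted p = 0.285), and in cKOt the time points overlapped. The fold change in Ctrl was 0.44 without replicate 2 of Ctrl ZT16, 1.60 (adjusted p = 0.0468) without replicate 1 of Ctrl ZT16 and 1.14 (adjusted p = 0.00828) with DESeq2. Aqp6 had 8.17 and 12.3 CPM in Ctrl ZT4, 13.97 and 11.3 CPM in Ctrl ZT16, 4.76 and 5.44 CPM in cKOt ZT4, and 7.03 and 8.03 CPM in cKOt ZT16. The cKOt libraries were below the Ctrl libraries at both time points, by -0.98 ± 0.23 at ZT4 (adjusted p = 0.152) and -0.69 ± 0.22 at ZT16 (adjusted p = 0.594).

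Avpr1a over all nuclei had 1.39 and 1.59 CPM in Ctrl ZT4, 2.39 and 2.05 CPM in Ctrl ZT16, 2.45 and 2.87 CPM in cKOt ZT4, and 3.52 and 3.45 CPM in cKOt ZT16. Its groups did not overlap between genotypes at either time point, with log2 fold changes of 0.86 ± 0.23 at ZT4 (edgeR adjusted p = 0.202) and 0.70 ± 0.22 at ZT16 (adjusted p = 0.530). Avpr2 had 5.38 and 5.10 CPM in Ctrl ZT4, 10.5 and 7.62 CPM in Ctrl ZT16, 4.45 and 4.21 CPM in cKOt ZT4, and 6.33 and 6.29 CPM in cKOt ZT16. It was higher at ZT16 in each genotype without overlap, by 0.78 ± 0.19 in Ctrl (adjusted p = 0.220) and 0.55 ± 0.19 in cKOt (adjusted p = 0.466). Both Ctrl libraries were above both cKOt libraries at each time point, with cKOt against Ctrl at -0.24 ± 0.19 at ZT4 (adjusted p = 0.823) and -0.47 ± 0.19 at ZT16 (adjusted p = 0.754). The difference at ZT16 lay between -0.64 and -0.27 over 13 alternatives. Neither receptor passed the test, and the counts behind them were small, at 784 UMIs of Avpr1a and 1980 UMIs of Avpr2 in all.

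**Figure D4:**
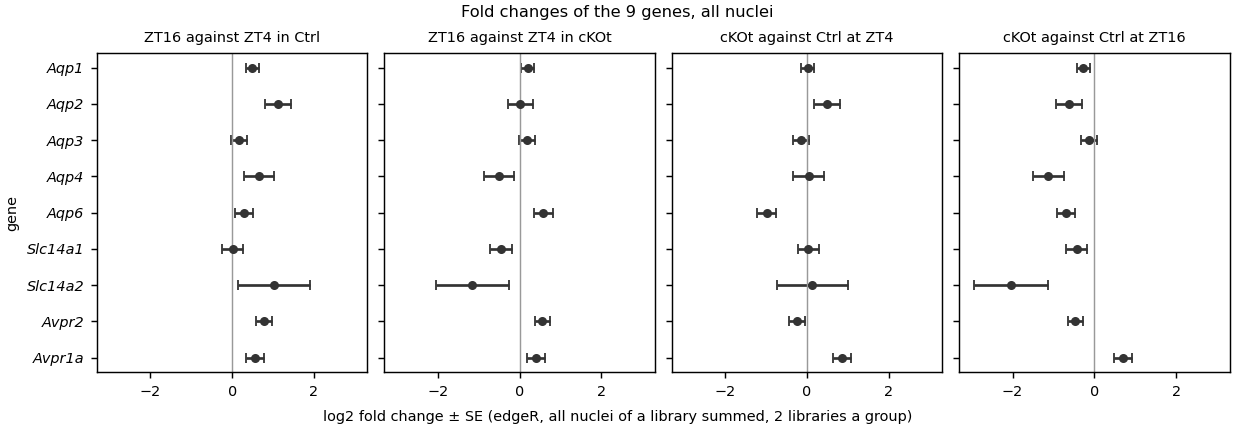
Log2 fold change ± SE (edgeR, horizontal) of the 9 genes (vertical) in sums over all nuclei for 4 contrasts, with 2 libraries in each group. All 9 points lie right of 0 in ZT16 against ZT4 in Ctrl and 8 of 9 lie left of 0 in cKOt against Ctrl at ZT16, and none passed the adjusted threshold.

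Within classes, 534 tests of the 9 genes were made over the 22 classes and 5 contrasts, and 10 were calls, 5 higher and 5 lower. The count depended on the filter on low counts, without which 86 of 960 tests were calls beside 0.563% of all gene tests. It also changed when single libraries were left out. Calls made only without that filter are given below as descriptions. With the filter and all libraries the calls were 3 of 108 tests in ZT16 against ZT4 in Ctrl, beside 0.387% of all gene tests, and 1 of 101 in ZT16 against ZT4 in cKOt, beside 0.132%. For cKOt against Ctrl they were 0 of 100 at ZT4 (background 0.3%) and 5 of 110 at ZT16 (0.183%), and 1 of 115 for the interaction (0.0225%). At an unadjusted p under 0.05 the numbers were 30, 28, 19, 35 and 29 in the order of contrasts above, beside 8.13%, 6.9%, 6.28%, 5.61% and 4.18% of all gene tests. Only the calls of Aqp4 in CCD and of Aqp3 in CNT fell in classes among the 3 highest of the gene. The other 8 were of Aqp2 in the distal convoluted tubule and of Slc14a2 in aIC and Myel, where the gene was far below its highest classes.

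Aqp4 in CCD was lower in cKOt than in Ctrl at ZT16. The Ctrl libraries had 398 and 459 CPM at ZT16 and the cKOt libraries 170 and 258 CPM, a log2 fold change of -1.04 ± 0.20 (edgeR adjusted p = 0.0199, beside 0.0949% of genes called in CCD). At ZT4 Ctrl had 233 and 304 CPM and cKOt 149 and 190 CPM, again without overlap (-0.70 ± 0.21, adjusted p = 0.289). ZT16 was above ZT4 by 0.67 ± 0.19 in Ctrl (adjusted p = 0.180), without overlap. This difference became a call with the replicate number as a block (0.69, adjusted p = 0.0314). It was also called without the filter on low counts (0.67, adjusted p = 0.0369), which is given as a description. The other 16 of 18 alternatives left it without a call, and over all of them the fold change lay between 0.26 and 0.89. In cKOt, ZT16 was above ZT4 by 0.33 ± 0.21 (adjusted p = 0.901), where the time points overlapped, and the interaction did not pass the test (-0.34 ± 0.29).

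Both CCD clusters gave lower Aqp4 in cKOt at ZT16. Cluster 27 had 636 and 826 CPM in Ctrl and 340 and 537 CPM in cKOt (-0.76, edgeR adjusted p = 0.344), and cluster 25 had 78.6 and 70.4 CPM in Ctrl and 38.8 and 11.6 CPM in cKOt (-1.49, adjusted p = 0.287). Neither cluster passed the test on its own. Cluster 27, the richer in Aqp4, made up 59.2% and 53.4% of the CCD nuclei of Ctrl ZT16 and 46.2% and 48.2% of those of cKOt ZT16, and its part in the difference was not tested. In MCD, Aqp4 had 1273 and 1075 CPM in Ctrl ZT16 and 1073 and 1019 CPM in cKOt ZT16, a difference below its standard error (-0.19 ± 0.23). The call was lost without replicate 1 or replicate 2 of Ctrl ZT16 and without replicate 1 of cKOt ZT16, where the fold change lay between -1.16 and -0.76.

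Aqp3 in CNT was also lower in cKOt at ZT16. Ctrl had 83.5 and 71.5 CPM and cKOt 34.2 and 28.4 CPM, a log2 fold change of -1.31 ± 0.30 (edgeR adjusted p = 0.0409, beside 0.429% of genes called in CNT). At ZT4 it had 71.1 and 52.6 CPM in Ctrl and 38.7 and 31.8 CPM in cKOt (-0.85 ± 0.32, adjusted p = 0.606). All 4 Ctrl libraries thus lay above all 4 cKOt libraries. The call was near the threshold and rested on 234 UMIs over the 8 libraries. It was lost without any 1 of the 4 ZT16 libraries, with fold changes between -1.44 and -1.21, with DESeq2 (adjusted p = 0.593), with doublets left out (-1.29, adjusted p = 0.0502) and without the nucleus with the most UMIs in each library (-1.30, adjusted p = 0.0545). In CCD, where Aqp3 was highest, it had 172 and 212 CPM in Ctrl ZT16 and 263 and 197 CPM in cKOt ZT16 (0.24 ± 0.20, adjusted p = 0.998).

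Aqp2 in CNT had 288 and 375 CPM in Ctrl ZT16 and 140 and 233 CPM in cKOt ZT16, and missed the threshold (-0.80 ± 0.22, edgeR adjusted p = 0.122). In CCD it had 744 and 1056 CPM in Ctrl ZT4, 1100 and 1555 CPM in Ctrl ZT16, 1131 and 1149 CPM in cKOt ZT4, and 1168 and 1198 CPM in cKOt ZT16. The Ctrl time points did not overlap (0.56 ± 0.18, adjusted p = 0.254) and the cKOt time points differed by 0.06 ± 0.18. Within CCD the clusters had opposite directions in cKOt, each without overlap. In cluster 25 the ZT4 libraries had 1088 and 892 CPM, above the ZT16 libraries with 732 and 688 CPM (-0.48 ± 0.22, adjusted p = 0.761), and in cluster 27 the ZT4 libraries had 1180 and 1452 CPM, below the ZT16 libraries with 1736 and 1775 CPM (0.43 ± 0.18, adjusted p = 0.505). The difference between the clusters was not tested. The class difference in Ctrl was 0.25 without replicate 2 of Ctrl ZT16. It was called when low counts were not filtered out (0.56, adjusted p = 0.0298), which is given as a description. In MCD, Aqp2 had 971 and 1674 CPM in Ctrl ZT4, 2276 and 2395 CPM in Ctrl ZT16, 1229 and 1919 CPM in cKOt ZT4, and 4136 and 2291 CPM in cKOt ZT16. ZT16 was above ZT4 without overlap in both genotypes there, by 0.81 ± 0.32 and 1.01 ± 0.32, and neither difference passed the adjusted threshold (adjusted p = 0.967 and 0.953). Leaving out 1 library moved them between 0.46 and 1.28 and between 0.55 and 1.35. The one in cKOt was called when low counts were not filtered out (0.98, adjusted p = 0.00864), again given as a description.

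The calls of Aqp2 were in classes with low levels. In DCT1 it had 15.3 and 22.4 CPM in Ctrl ZT4 and 33.0 and 97.6 CPM in Ctrl ZT16 (1.78 ± 0.42, edgeR adjusted p = 0.0359, beside 1.25% of genes called), and the call was lost without replicate 1 or 2 of Ctrl ZT4 (1.55 and 2.14), with DESeq2 (1.83, adjusted p = 0.570), and without replicate 2 of Ctrl ZT16, where the fold change was 0.73 (adjusted p = 0.531). In DCT2 it had 50.2 and 54.2 CPM in Ctrl ZT16 and 13.95 and 19.8 CPM in cKOt ZT16 (-1.65 ± 0.35, adjusted p = 0.0201, beside 0.337% called). The call in DCT2 was lost without any 1 of the 4 ZT16 libraries, with fold changes between -1.98 and -1.41, with DESeq2 (adjusted p = 0.294) and without the nucleus with the most UMIs in each library (-1.54, adjusted p = 0.0828). In capEC, Aqp2 had 48.6 and 97.5 CPM in Ctrl ZT16 and 41.8 and 65.3 CPM in cKOt ZT16, and the part of low levels outside the collecting duct in the DCT calls was not tested.

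Aqp6 in aIC was lower in cKOt at both time points but did not pass the test. It had 544 and 715 CPM in Ctrl ZT4 and 289 and 415 CPM in cKOt ZT4 (-0.86 ± 0.20, edgeR adjusted p = 0.0651, with 0.26% of genes called in aIC). At ZT16 it had 830 and 727 CPM in Ctrl and 532 and 401 CPM in cKOt (-0.76 ± 0.20, adjusted p = 0.134). All 4 Ctrl libraries lay above all 4 cKOt libraries. Both aIC clusters showed the same order at ZT4, with 672 and 838 CPM in Ctrl and 343 and 517 CPM in cKOt in cluster 39 (leading genes Clnk and Slc4a1), and 447 and 526 CPM in Ctrl and 212 and 295 CPM in cKOt in cluster 48 (leading genes Calcr and Kit). The difference at ZT4 passed the threshold with doublets left out (-0.87, adjusted p = 0.0349), and over all alternatives its fold change lay between -1.16 and -0.64 with adjusted p from 0.00347 to 0.698. The difference at ZT16 was called when low counts were not filtered out (-0.76, adjusted p = 0.015), which is given as a description.

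Avpr1a in bIC had 36.5 and 41.7 CPM in Ctrl ZT4, 72.0 and 47.1 CPM in Ctrl ZT16, 69.7 and 111 CPM in cKOt ZT4, and 94.1 and 85.3 CPM in cKOt ZT16. Both cKOt libraries were above both Ctrl libraries at each time point, with a log2 fold change of 1.16 ± 0.32 at ZT4 (edgeR adjusted p = 0.255) and 0.56 ± 0.29 at ZT16 (adjusted p = 0.996). In aIC it had 33.3 and 21.9 CPM in Ctrl ZT4 and 50.5 and 57.2 CPM in cKOt ZT4, and 39.2 and 43.9 CPM in Ctrl ZT16 and 82.5 and 74.3 CPM in cKOt ZT16. These groups did not overlap either (1.00 ± 0.38 and 0.90 ± 0.32, edgeR adjusted p = 0.571 and 0.501). Over 16 alternatives each, the fold changes lay between 0.54 and 1.96 at ZT4 and between 0.50 and 1.19 at ZT16, without a call.

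Avpr1a was also fitted within each bIC cluster. In cluster 41, with Slc26a4 and Insrr among its leading genes, it had 32.5 and 23.8 CPM in Ctrl ZT4 and 95.8 and 142 CPM in cKOt ZT4 (2.04 ± 0.39, edgeR adjusted p = 0.0231, beside 0.358% of genes called in that cluster). In cluster 50, with Rorb and Hmx2 among its leading genes, it had 40.7 and 64.3 CPM in Ctrl ZT4 and 37.3 and 63.7 CPM in cKOt ZT4, with a fold change of -0.088 (adjusted p = 0.994). The fits within clusters were chosen after seeing the data, and the difference between the clusters was not tested. Avpr1a overlaps Gm48877 on the opposite strand in the annotation, which had 49 to 139 UMIs a library beside 42 to 151 of Avpr1a, and the pair may share reads.

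**Figure D5:**
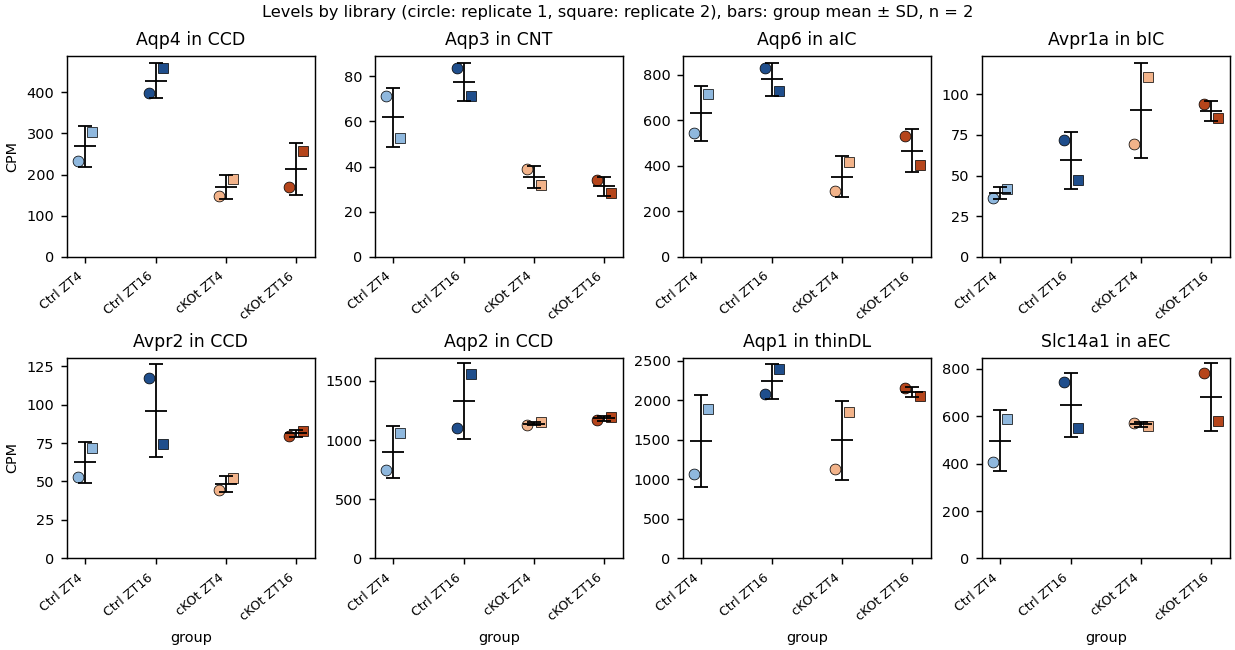
Level (CPM, linear axis from 0) by group of 8 combinations of gene and class, with circles and squares for replicates 1 and 2 and bars for the group mean ± SD (n = 2). Ctrl lies above cKOt without overlap for Aqp4 in CCD, Aqp3 in CNT and Aqp6 in aIC at each time point, and below it for Avpr1a in bIC, while only Aqp4 in CCD and Aqp3 in CNT, both at ZT16, passed the test. Such separation of 2 libraries a group can arise without a true difference, and its share over all genes was not computed.

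Avpr2 in CCD had 53.1 and 71.8 CPM in Ctrl ZT4, 118 and 74.6 CPM in Ctrl ZT16, 44.6 and 52.0 CPM in cKOt ZT4, and 79.8 and 82.7 CPM in cKOt ZT16. ZT16 lay above ZT4 without overlap in both genotypes, by 0.60 ± 0.24 in Ctrl (edgeR adjusted p = 0.540) and 0.75 ± 0.26 in cKOt (adjusted p = 0.536), and the one in Ctrl was 0.26 without replicate 1 of Ctrl ZT16. In CNT it had 38.8 and 32.5 CPM in Ctrl ZT4 and 98.2 and 48.5 CPM in Ctrl ZT16 (1.14 ± 0.37, adjusted p = 0.235). The cKOt libraries of CNT overlapped between time points, with 34.9 and 24.6 CPM in cKOt ZT4 and 59.8 and 25.8 CPM in cKOt ZT16 (0.62 ± 0.39, adjusted p = 0.669). Genotypes differed in CCD by -0.42 ± 0.27 at ZT4 and -0.28 ± 0.24 at ZT16, neither past the test. In the annotation Avpr2 overlaps Arhgap4 and L1cam on the opposite strand, which had 297 to 558 and 876 to 1724 UMIs a library beside 158 to 474 of Avpr2. The sources used here do not state whether counting used strand, so these genes may share reads. Slc14a2 likewise overlaps Gm6133 (53 to 138 UMIs a library beside 4216 to 44557) and Aqp4 overlaps Gm50048 (6 to 22 beside 734 to 2925), each on the opposite strand.

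Aqp1 in thinDL had 1073 and 1895 CPM in Ctrl ZT4, 2085 and 2400 CPM in Ctrl ZT16, 1138 and 1851 CPM in cKOt ZT4, and 2156 and 2062 CPM in cKOt ZT16. ZT16 was above ZT4 in both genotypes by similar amounts, 0.55 ± 0.24 in Ctrl (edgeR adjusted p = 0.819) and 0.48 ± 0.24 in cKOt (adjusted p = 0.914), and genotypes overlapped at both time points. Without replicate 1 or 2 of Ctrl ZT4 the fold change in Ctrl was 0.22 or 1.04. In aEC it ranged from 461 to 880 CPM with no contrast past an unadjusted p of 0.05. Slc14a1 in aEC had 406 and 590 CPM in Ctrl ZT4, 743 and 552 CPM in Ctrl ZT16, 572 and 559 CPM in cKOt ZT4, and 783 and 579 CPM in cKOt ZT16. No contrast of Slc14a1 there passed an unadjusted p of 0.05, and its fold changes lay between -0.07 (interaction) and 0.36 (ZT16 against ZT4 in Ctrl).

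Slc14a2 in MCD had 15671 and 4616 CPM in Ctrl ZT4, 5575 and 20717 CPM in Ctrl ZT16, 10171 and 6870 CPM in cKOt ZT4, and 1565 and 5683 CPM in cKOt ZT16. Replicates of 1 group thus differed several fold, and no contrast passed the test, the closest being cKOt against Ctrl at ZT16 (-1.88 ± 0.68, edgeR), where the groups overlapped. This fold change was -0.59 without replicate 2 of Ctrl ZT16 and -3.14 without replicate 2 of cKOt ZT16. When low counts were not filtered out the contrast was called (-1.89, adjusted p = 1.55e-13), although the groups overlapped. That p-value is given as a description and not as evidence of a difference. Without the filter, calls within classes rose from 10 of 534 to 86 of 960 tests. The number of nuclei of cluster 31, the cluster richest in Slc14a2, ran with these levels: 172 and 28 in Ctrl ZT4, 63 and 365 in Ctrl ZT16, 157 and 131 in cKOt ZT4, and 21 and 87 in cKOt ZT16. Within cluster 31 Slc14a2 still ranged from 2725 CPM (cKOt ZT16, replicate 1) to 27212 CPM (Ctrl ZT16, replicate 2). In cluster 22 it ranged from 1132 to 6009 CPM.

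The 6 calls of Slc14a2 in aIC and Myel rested on few UMIs, and many of these on single nuclei. In aIC it had 22.2 and 1.69 CPM in Ctrl ZT4, 65.3 and 103 CPM in Ctrl ZT16, 27.6 and 28.6 CPM in cKOt ZT4, and 193 and 331 CPM in cKOt ZT16. It was called higher at ZT16 in Ctrl (3.05 ± 0.55, edgeR adjusted p = 0.0064) and in cKOt (3.21 ± 0.39, adjusted p = 5.62e-05), and higher in cKOt at ZT16 (1.67 ± 0.32, adjusted p = 0.0144), beside 0.25%, 0.0217% and 0.223% of genes called. The Ctrl ZT4 libraries held 8 and 1 UMIs, so the contrast in Ctrl passed the filter on low counts only through ZT16, where the gene was high. In cKOt ZT16, 84 of 89 UMIs of replicate 1 and 206 of 214 UMIs of replicate 2 lay in 1 nucleus each. Without the nucleus with the most UMIs in each library, the last 2 fold changes turned to -1.06 (adjusted p = 0.941) and -2.17 (adjusted p = 0.341). Within aIC cluster 48, which held both nuclei, cKOt was above Ctrl at ZT16 (2.53, edgeR adjusted p = 0.000231, beside 0.0843% called) and ZT16 was above ZT4 in cKOt (4.77 ± 0.52, adjusted p = 3.52e-07, beside 0.0707%). Within cluster 39 cKOt was below Ctrl at ZT16 (-3.70, adjusted p = 0.0174, beside 0.256%) and the interaction was called (-5.45 ± 1.09, adjusted p = 0.0468, beside 0.0864%). The means in cluster 39 at ZT16 were 74.9 CPM in Ctrl and 4.53 CPM (SD 6.40, n = 2) in cKOt. That contrast between genotypes thus passed the filter only through Ctrl ZT16, where the gene was high. The p-values within cluster 39 are given as descriptions. DESeq2 made none of the 3 calls. The call in Ctrl was also lost within cluster 39 (2.82, adjusted p = 0.0838), within cluster 48 (3.21, adjusted p = 0.0901) and without the nucleus with the most UMIs in each library (2.76, adjusted p = 0.199). It was lost without replicate 2 of Ctrl ZT4 (1.86) or of Ctrl ZT16 (2.64) and was 5.43 without replicate 1 of Ctrl ZT4, and that between genotypes was lost without replicate 1 of Ctrl ZT16 (1.33) or replicate 2 of cKOt ZT16 (1.17).

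In Myel, Slc14a2 had 37.0 and 17.8 CPM in Ctrl ZT4, 111 and 211 CPM in Ctrl ZT16, 72.4 and 97.7 CPM in cKOt ZT4, and 10.2 and 29.1 CPM in cKOt ZT16. It was called higher at ZT16 in Ctrl (2.58 ± 0.41, edgeR adjusted p = 0.0323), lower in cKOt at ZT16 (-3.06 ± 0.46, adjusted p = 0.0153) and for the interaction (-4.76 ± 0.64, adjusted p = 0.00379), beside 0.0301%, 0.0414% and 0.00983% of genes called. In Ctrl ZT16, 49 of 76 UMIs of replicate 1 and 30 of 103 UMIs of replicate 2 lay in 1 nucleus each, and both nuclei were called doublets. With doublets left out the 3 fold changes were 1.66, -2.01 and -3.78 and none was called (adjusted p = 0.837, 0.687 and 0.506). At the coarser clustering the call in Ctrl (1.87, adjusted p = 0.303) and that between genotypes (-2.98, adjusted p = 0.0542) were lost, as they were without the nucleus with the most UMIs in each library (2.05, adjusted p = 0.325, and -2.69, adjusted p = 0.199). The call in Ctrl was also lost without replicate 2 of Ctrl ZT4 (2.09) or of Ctrl ZT16 (2.02), that between genotypes without replicate 2 of Ctrl ZT16 (-2.48) or either replicate of cKOt ZT16 (-2.41 and -3.95), and the interaction without replicate 1 of cKOt ZT16 (-4.11). The same libraries had 25.8 and 168 CPM of Slc14a2 in capEC in Ctrl ZT16 and 14.3 and 34.1 CPM in cKOt ZT16.

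Slc14a2 was also called in cluster 38, which was left unnamed and had Sorcs3, Kirrel3 and Ism1 as leading genes. It had 47.2 and 24.9 CPM in Ctrl ZT4, 67.95 and 452 CPM in Ctrl ZT16, 57.6 and 76.7 CPM in cKOt ZT4, and 0 and 31.3 CPM in cKOt ZT16. It was higher at ZT16 in Ctrl (2.88 ± 0.60, edgeR adjusted p = 0.0287, beside 0.171% of genes called) and lower in cKOt at ZT16 (-3.41 ± 0.62, adjusted p = 0.0355, beside 0.0146%). Replicate 2 of Ctrl ZT16 held 155 UMIs and replicate 1 held 14. With 0 CPM in replicate 1 of cKOt ZT16, the contrast between genotypes passed the filter only through Ctrl ZT16, where the gene was high. These fits within clusters too were chosen after seeing the data.

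The list of 44 other genes of the pathway held other aquaporins, further receptors, cyclic AMP signalling, vesicle traffic, prostaglandin E receptors and the tonicity response. Of these, 40 could be tested somewhere, and 3 of 1352 tests, made in all nuclei and in the 7 classes that are highest or next highest for one of the 9 genes, were calls, 2 higher and 1 lower, beside 0.11% of all gene tests in the same fits. In all nuclei the calls were 0 of 39 in ZT16 against ZT4 in Ctrl (beside 0.142% of all genes) and 1 of 40 in cKOt against Ctrl at ZT4 (beside 0.446%). They were 0 of 40 in each of the other 3 contrasts.

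Aqp8, another aquaporin, had 1 and 3 UMIs in the Ctrl ZT4 libraries, 7 and 3 in Ctrl ZT16, 19 and 51 in cKOt ZT4, and 35 and 30 in cKOt ZT16. It was higher in cKOt at ZT4 (3.95 ± 0.63, edgeR adjusted p = 0.0430, beside 0.446% of genes called in all nuclei) and its groups did not overlap at ZT16 (2.74 ± 0.54, adjusted p = 0.140). In both contrasts only the cKOt group had at least 5 UMIs in both replicates. Aqp8 thus entered these tests through the group where it was high, and the p-values are given as descriptions. Of its 149 UMIs, 66 were in PCT/PST nuclei. The call was lost without any 1 of 7 libraries and with the replicate block, while the fold change lay between 3.25 and 4.66 over all 13 alternatives.

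Akr1b3, the aldose reductase that makes sorbitol in hypertonic surroundings, had in CCD 53.1 and 53.8 CPM in Ctrl ZT4, 121 and 105 CPM in Ctrl ZT16, 43.3 and 77.5 CPM in cKOt ZT4, and 79.8 and 66.6 CPM in cKOt ZT16. It rose at ZT16 in Ctrl (1.08 ± 0.24, edgeR adjusted p = 0.0404, beside 0.417% of genes called in CCD), and the call was lost under 11 of 17 alternatives, with fold changes between 0.84 and 1.14. These were each of the 4 Ctrl libraries and the 2 cKOt ZT16 libraries left out in turn, DESeq2, doublets left out, the coarser clustering and each of the CCD clusters 25 and 27 alone, with adjusted p up to 0.679. Slc6a6, the taurine transporter, had in thinDL 1045 and 1156 CPM in Ctrl ZT4, 1071 and 755 CPM in Ctrl ZT16, 561 and 513 CPM in cKOt ZT4, and 821 and 561 CPM in cKOt ZT16. It was lower in cKOt at ZT4 (-1.07 ± 0.21, adjusted p = 0.0146, beside 0.477% called in thinDL), and the call was lost without any 1 of the 4 ZT4 libraries, with fold changes between -1.15 and -0.98. Within thinDL cluster 24 it was -1.42 (adjusted p = 0.00153) and within cluster 52 it was -0.39 (adjusted p = 0.617).

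The genes with the most similar profile were found by Pearson's r of log2(CPM + 1) over the 24 named classes, each the mean of 8 libraries, and are given as a description, since the classes share libraries and depth. Closest to Aqp2 were Ptger1 (0.92), a prostaglandin E receptor, and Aqp4 (0.92), and closest to Aqp4 were Wnt9b (0.96) and Ros1 (0.92). Aqp3 was closest to Pde1c (0.91) and Kif26b (0.88), and Avpr2 to Ptger1 (0.91) and Fanca (0.88). Aqp6 was closest to Slc4a1 (0.96), the anion exchanger of type A intercalated cells, and Il1f5 (0.96), and Avpr1a to B830017H08Rik (0.93) and Mab21l3 (0.87). Slc14a2 was closest to Nek10 (0.90) and Clec2l (0.90), Slc14a1 to S100a4 (0.93) and Cdk19 (0.87), and Aqp1 to Agt (0.82).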

How the data were processed

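Single-nucleus RNA-seq libraries were made from 8 kidneys, 1 mouse per library, with droplet chemistry that tags each transcript with a UMI. The deposited values are counts, which the authors made per nucleus and gene with Cell Ranger 7.1.0 (UMIs collapsed, nuclei filtered). The submitters' processing notes also name bcl2fastq 2.20 and Seurat 5. Their notes name the GRCm39 build and the methods a GRCm38 reference, so no file coordinate is printed, and the promoters come from RefSeq GRCm38.p6. The sources used here do not state whether intron reads or the strand were counted.

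Of 82784 barcodes, 81391 passed minima of 500 genes and 800 UMIs and a maximum of 2% mitochondrial UMIs. Of 32285 features, 31674 were matched by gene ID to the annotation and 21286 were protein coding, and only these enter totals and tests. The 2000 most variable genes, without the 9 genes and the 44 of the pathway list, gave 100 principal components, a graph of 20 neighbours and Leiden clusters at resolution 3. Scrublet, set to 8% expected doublets, marked 4451 nuclei (5.47%), which were kept in the main values. A cluster took a name at a mean marker z of at least 0.9, with at least 3 markers at least 2-fold up and found in 5% of nuclei, under 50% doublets and at least 20 nuclei. It stayed unnamed if its leading genes went against the name. These were Ncam1 or Wnt16 (parietal epithelium) for Podo, and Ccl21a or Mmrn1 (lymphatic endothelium) for aEC. Clusters of low depth with no marker of the class among their leading genes also stayed unnamed. This naming rule was set after the clusters were seen, and 56 clusters with 75273 nuclei (92.5%) were named. Classes built anew in this way may differ from those of the study.

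UMIs were summed per library and class, normalised by TMM, and tested with edgeR 4.0.16 (quasi-likelihood, 1 model of the 4 groups) in R 4.3.3. Genes needed at least 5 UMIs in both replicates of a group in the contrast, and p-values were adjusted by Benjamini-Hochberg over all genes of a class and contrast. Groups are said not to overlap where every library of 1 group lay above every library of the other. This is a description, and its share over all genes was not computed. DESeq2 1.42.0 was an alternative. The edgeR step was checked on counts simulated from the CCD and all-nuclei sums, with the same dispersion for every gene. DESeq2 and the permutation test were not checked in this way. Intervals of ± are standard errors of the log2 fold change from the edgeR fit. They rest on a dispersion pooled over the 4 groups and moderated across genes, so they are not the spread between the 2 mice of a group.

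The members, the pathway list and the markers were chosen with earlier results of these data known. The text names the 9 members, the genes of the pathway list that were called in all nuclei or in a class where a member is highest or next highest, and, for each member, the 2 genes with the closest profile among those with a mean of at least 5 CPM in its highest class. Some genes that these rules would name are not reported here.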

Additional observations from a re-analysis of the deposited data

Results flagged for a closer look

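Slc14a2 in Myel differed between genotypes in its change from ZT4 to ZT16, by an interaction of -4.76 (log2, edgeR adjusted p = 0.00379). Both Ctrl libraries were higher at ZT16 (111 and 211 CPM) than at ZT4 (37.0 and 17.8 CPM), and both cKOt libraries were lower at ZT16 (10.2 and 29.1 CPM) than at ZT4 (72.4 and 97.7 CPM). The interaction was -3.78 (adjusted p = 0.506) with doublets left out, -3.98 (adjusted p = 0.267) at the coarser clustering, -4.15 (adjusted p = 0.438) without the nucleus with the most UMIs in each library, and -4.11 (adjusted p = 0.0968) without replicate 1 of cKOt ZT16.

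Slc14a2 had 5309 CPM in cluster 34, for which no contrast between groups is given above. Its 847 nuclei were left unnamed, and the closest marker list was that of the thin descending limb. The 8 libraries lay between 3778 and 6689 CPM, a range of levels above that of every named class except MCD, and narrower than that of MCD (1565 to 20717 CPM).

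Aqp1 had 453 CPM in cluster 66, also unnamed, whose 124 nuclei had Stab2, Ccl21a and Mmrn1 as leading genes and the arterial endothelium list as the closest. The cluster was kept out of aEC by Ccl21a and Mmrn1, which the naming rule took as genes of lymphatic endothelium. Its libraries ranged from 196 to 708 CPM. Among the classes only thinDL and aEC had a higher mean level of Aqp1.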

How the results depend on the processing

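With DESeq2, 1 of the 9 genes was called over all nuclei in ZT16 against ZT4 in Ctrl and 1 in cKOt against Ctrl at ZT4 (0 with edgeR), while within classes it called 0 in ZT16 against ZT4 in cKOt and 3 in cKOt against Ctrl at ZT16 (edgeR 1 and 5). Over all genes and nuclei edgeR called 23, 0, 72, 28 and 3 genes in ZT16 against ZT4 in Ctrl and in cKOt, cKOt against Ctrl at ZT4 and at ZT16, and the interaction, DESeq2 called 233, 164, 348, 170 and 48, and edgeR without the filter on low counts 51, 10, 124, 64 and 10. Without that filter the calls of the 9 genes within classes were 21, 18, 8, 23 and 16 in the same order, in place of 3, 1, 0, 5 and 1, beside 0.842%, 0.569%, 0.675%, 0.526% and 0.202% of all gene tests within classes, and the cause was not tested. With doublets left out they were 1 for cKOt against Ctrl at ZT4, 3 at ZT16 and 0 for the interaction, and the coarser clustering also gave 0 for the interaction. Leaving out 1 library at a time gave 0 to 1 calls over all nuclei in ZT16 against ZT4 in Ctrl (the 1 without replicate 1 of Ctrl ZT16), and within classes 0 to 8, 1 to 3, 0 to 2, 1 to 6 and 0 to 5 calls in the same order. The 0 calls within classes in ZT16 against ZT4 in Ctrl came without replicate 2 of Ctrl ZT4 or of Ctrl ZT16. The 8 and the 5 calls came without replicate 1 of Ctrl ZT16, the 3 without replicate 2 of cKOt ZT4, the 2 without replicate 1 of cKOt ZT4, the 1 between genotypes at ZT16 without replicate 2 of Ctrl ZT16 or replicate 1 of cKOt ZT16, and the 0 for the interaction without the latter. Directions that turned included that of Aqp2 in CCD for ZT16 against ZT4 in cKOt within cluster 25 (-0.48), and those of Avpr1a in bIC at ZT4 within cluster 50 (-0.088) and of Slc14a2 in aIC, where ZT16 against ZT4 in cKOt was -1.06 and cKOt against Ctrl at ZT16 was -2.17 without the top nucleus of each library, and -2.63 and -3.70 within cluster 39. The crossed block, the fits within clusters and those without the top nucleus were chosen after seeing the data. RLE size factors gave the same 10 calls in number within classes. Shares of all gene tests within classes were worked out only for the main setting and without the filter on low counts. The other counts of calls within classes, here and below, thus have no such share beside them.

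Replicate numbers are shared between groups, but no source ties equal numbers to a litter, batch or day, and deviations of same-numbered libraries correlated by -0.19, 0.13, 0.29 and 0.28 in the pairs of ZT4 and ZT16 in Ctrl and in cKOt and of the genotypes at ZT16 and ZT4. With the replicate block, calls of the 9 genes stayed at 0 over all nuclei in each contrast and were 4, 1, 0, 6 and 1 within classes, Aqp4 in CCD passed in ZT16 against ZT4 in Ctrl (0.69, adjusted p = 0.0314), and Aqp8 in all nuclei no longer passed (3.94, adjusted p = 0.0744). With crossed numbers in Ctrl, 0 and 4 of the 9 genes were called in ZT16 against ZT4 in Ctrl over all nuclei and within classes.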
